A study of Homo sapiens with 4 samples.

Results

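The genes described here are 39 of the 58884 in the deposited table, namely the chaperones, disulfide enzymes and lectins that fold proteins in the endoplasmic reticulum (ER), the genes of ER-associated degradation (ERAD) and the sensors of the unfolded protein response (UPR). They were listed by their known function, with earlier results of these data known. RNA was sequenced from the human cell lines TPC-1 and B-CPAP, both derived from papillary thyroid carcinomas, each kept in culture flasks under water at 37 °C or at 40 °C. Each of the 4 groups (TPC-1 at 37 °C, TPC-1 at 40 °C, B-CPAP at 37 °C and B-CPAP at 40 °C) held 1 library. The comparison of temperatures asks how heat changes the transcripts of thyroid cancer cells. The labels give the exposure as 15 min, as 20 min and as 24 h in different fields, and its length is unknown here.

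Secreted and membrane proteins enter the ER unfolded. There they meet Hsp70 and Hsp90 chaperones, enzymes that form disulfide bonds and a cycle of lectins that reads their sugars, while chains that fail to fold are passed back to the cytosol by ERAD and destroyed. When unfolded proteins accumulate, the sensors IRE1, PERK and ATF6 start the UPR, and the transcription factors XBP1 and ATF6 raise the genes of folding and ERAD through short promoter elements. Thyroid follicular cells are known for a heavy ER load, because they make and secrete thyroglobulin.

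The estimated depth was 20704703 to 24466582 reads per library. Mitochondrially encoded genes took 16.8% and 19.9% of TPM (a transcript level scaled by gene length and library total) in TPC-1 at 37 and 40 °C, and 22.0% and 23.9% in B-CPAP. Of the thyroid markers, PAX8 stood at 267 to 284 TPM in TPC-1 and 98.9 to 112 TPM in B-CPAP, NKX2-1 was listed at 0 in TPC-1 and stood at 8.60 and 7.90 TPM in B-CPAP, and FOXE1 stood at 5.95 to 9.70 TPM in all libraries. SLC5A5 was listed at 0 in all libraries, and TG, the gene of thyroglobulin, and TSHR stayed under 1 TPM. The 6 fibroblast markers summed to 9.13 to 9.56 TPM in TPC-1 and 38.0 to 46.7 TPM in B-CPAP, with 5 of the 6 above 1 TPM in some library. COL1A1, COL1A2, COL3A1 and LUM were higher in B-CPAP, and DCN stood at 0.159 TPM or less. PDGFRB went the other way, at 6.19 and 6.72 TPM in TPC-1 and 4.15 and 4.65 TPM in B-CPAP at 37 and 40 °C. The part of these markers in the differences between lines was not tested. Of the 5 leukocyte markers PTPRC, CD3E and MS4A1 were listed at 0 in all libraries, CD14 stood at 0.325 to 1.37 TPM and CD68 at 0.248 TPM or less.

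Of the 39 genes, 38 had a mean of at least 1 TPM over the 4 libraries and entered the comparisons. The exception was DERL3, a derlin of secretory tissues, at 0.218 and 0.182 TPM in TPC-1 against 0.282 and 0.226 TPM in B-CPAP, where levels here and below are given at 37 °C first and at 40 °C second. DERL3 shares 77.0% of its exon bases with SMARCB1 on the other strand, and the library kit does not mark strand. A further member, TXNDC5, shares 60.6% of its exon bases with the read-through gene BLOC1S5-TXNDC5 on its own strand, so its level is uncertain. For the other members the shared part was at most 25.2%, in PDIA6.

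The promoter elements by which the UPR acts were searched in the RefSeq promoters (GRCh38.p14, 250 bases before the first start), of which 36 of the 39 genes had an entry. The ER stress response element ERSE (CCAAT and CCACG with any 9 bases between, either strand) was found in 7 of the 36, HSPA5, HSP90B1, CRELD2, CALR, CANX, ERO1B and XBP1, which is 19.4%, and in 0.0806% of all 27305 promoters. The shorter ERSE-II (ATTGG and CCACG with any 1 base between, either strand) was found in 3 of the 36, HYOU1, SDF2L1 and HERPUD1, which is 8.33%, and in 0.0513% of all promoters. The XBP1-type element UPRE (TGACGTGG, either strand) was found in HYOU1, where it overlaps an ERSE-II, and in 0.667% of all promoters. A match describes these letters only and does not show that a factor binds there. The genes were listed by known function, and these elements are known for acting on such genes. The higher shares are thus no independent result.

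The following 5 promoters are examples among the 10 with an ERSE or ERSE-II, chosen after values were seen. They include HERPUD1 and SDF2L1, whose differences between the lines are among the largest, but not every gene of large difference. ERO1B, with the widest gap between the lines, carries an ERSE and is not shown, while HSPA5 and HYOU1 were not called between the lines. The values are described further on. Capitals mark the letters of the element, CCAAT and CCACG or their reverse complements ATTGG and CGTGG, with the UPRE in capitals too in HYOU1. Each is written 5′ to 3′ on the strand of its gene, and for XBP1, SDF2L1 and HERPUD1 only the stretch outside annotated exons is shown. The positions are chr9:125241344-125241593 on the minus strand for HSPA5, chr22:28800598-28800682 on the minus strand for XBP1, chr11:119057206-119057455 on the minus strand for HYOU1, chr22:21642052-21642260 on the plus strand for SDF2L1 and chr16:56931892-56932047 on the plus strand for HERPUD1.
HSPA5: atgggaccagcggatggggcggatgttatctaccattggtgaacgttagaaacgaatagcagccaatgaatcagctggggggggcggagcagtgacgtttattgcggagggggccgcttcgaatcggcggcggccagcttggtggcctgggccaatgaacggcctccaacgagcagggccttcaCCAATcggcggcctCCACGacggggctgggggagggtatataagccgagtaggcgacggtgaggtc
XBP1: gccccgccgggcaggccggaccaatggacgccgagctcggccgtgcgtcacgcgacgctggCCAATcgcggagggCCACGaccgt
HYOU1: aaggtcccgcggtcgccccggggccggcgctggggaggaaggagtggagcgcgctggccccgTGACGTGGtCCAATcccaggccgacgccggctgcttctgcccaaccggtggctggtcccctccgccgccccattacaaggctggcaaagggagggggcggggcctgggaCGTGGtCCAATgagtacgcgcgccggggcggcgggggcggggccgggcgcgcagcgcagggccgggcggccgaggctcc
SDF2L1: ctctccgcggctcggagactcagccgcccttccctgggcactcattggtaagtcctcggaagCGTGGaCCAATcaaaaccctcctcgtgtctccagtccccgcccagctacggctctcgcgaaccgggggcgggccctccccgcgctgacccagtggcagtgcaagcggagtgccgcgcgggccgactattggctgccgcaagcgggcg
HERPUD1: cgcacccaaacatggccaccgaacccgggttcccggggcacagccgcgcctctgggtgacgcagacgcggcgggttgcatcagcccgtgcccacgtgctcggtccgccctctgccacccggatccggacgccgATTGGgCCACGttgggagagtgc
HSPA5 and XBP1 carry an ERSE close to the start, HYOU1 carries a pair of ERSE-II elements in reverse orientation, and SDF2L1 and HERPUD1 carry a single ERSE-II.

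Levels spanned a wide range. The genes together took 0.841% and 0.796% of TPM in TPC-1 at 37 and 40 °C and 0.617% and 0.672% in B-CPAP. Of the 39, 12 had a mean of at least 100 TPM and 5 had a mean between 1 and 10 TPM. The calcium-binding lectin chaperone CALR was the highest member in each library, at 2961 and 2582 TPM in TPC-1 against 2193 and 2151 TPM in B-CPAP, and HSPA5 (BiP, the Hsp70 of the ER) was second in each. The UPR sensors ERN1 (IRE1) and EIF2AK3 (PERK) stood under 10 TPM in all libraries.

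**Figure D1:**
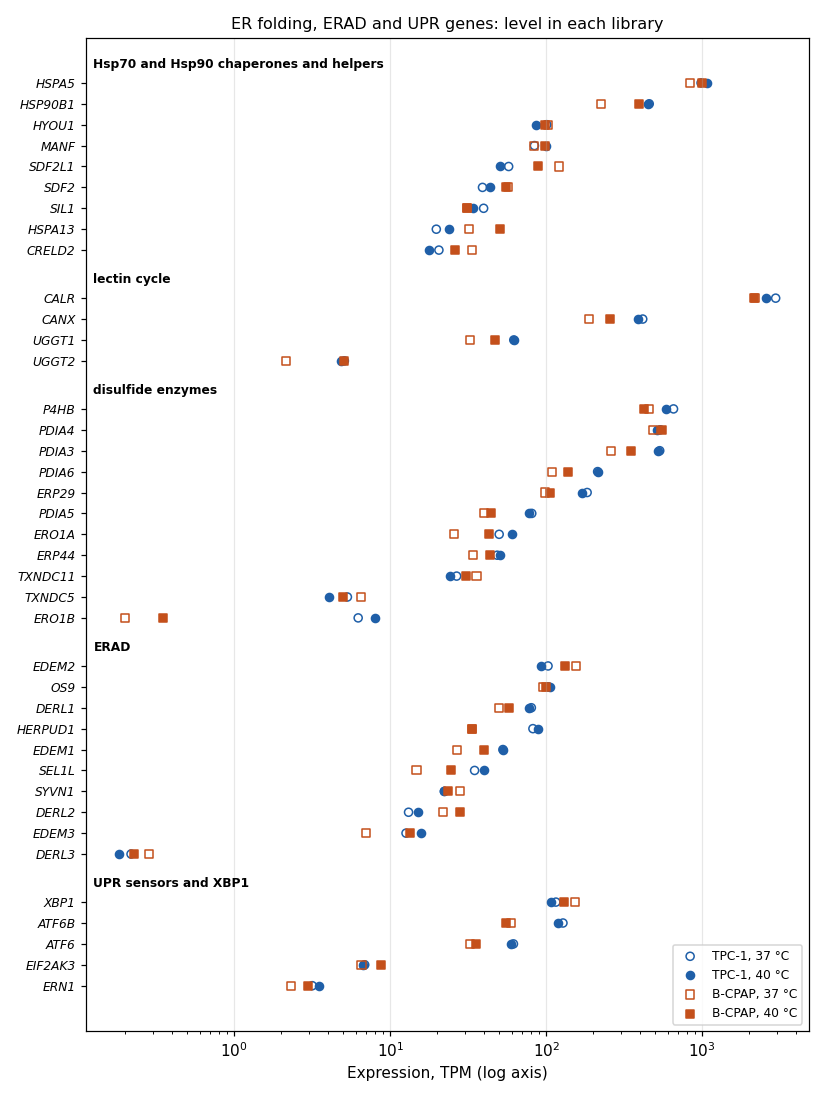
TPM of the 39 genes in the 4 libraries on a log axis, ordered by role and with 1 point per library (TPC-1 circles, B-CPAP squares, open 37 °C, filled 40 °C). CALR lies highest at 2151 to 2961 TPM, DERL3 lies under 1 TPM, and ERO1B shows the widest gap between the lines.

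The lines differed in most of these genes, as they did in 9349 of all 14912 tested genes. With temperature as a block in limma, 18 of the 38 tested genes were lower in B-CPAP (47.4% against a background of 32.8% of all 14912 tested genes), 8 were higher (background 29.9%) and 12 did not pass an adjusted p of 0.05. The median difference, B-CPAP minus TPC-1, was -0.35 on the log2(TPM + 1) scale, which all values called log2 differences below share, and -0.05 over all tested genes. The spread in this fit is how far the temperature difference differs between lines, on 1 residual degree of freedom, and holds no spread between cultures. In these bulk libraries fewer cells with a transcript and less of it per cell cannot be told apart. Statements below that the libraries of the lines did not overlap describe the printed values only. No share over all genes stands beside them, and they add no support to the calls.

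Among the Hsp70 and Hsp90 chaperones and their helpers, 4 of 9 were higher in B-CPAP (background 29.9%) and 1 was lower (32.8%). SDF2L1 (ENSG00000128228, chromosome 22, 21642261 to 21644298, plus strand), a partner of the J proteins that keeps HSPA5 substrates soluble, stood at 57.5 and 50.5 TPM in TPC-1 against 120.1 and 88.7 TPM in B-CPAP (log2 difference 0.93, SE 0.10, adjusted p = 0.00126). HSPA13, an Hsp70 of microsomes, stood at 19.7 and 23.9 TPM in TPC-1 against 32.1 and 50.9 TPM in B-CPAP (log2 difference 0.87, SE 0.13, adjusted p = 0.00389). Both B-CPAP libraries exceeded both TPC-1 libraries for either gene.

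The ER stress-induced CRELD2 stood at 20.5 and 17.8 TPM in TPC-1 against 33.6 and 26.2 TPM in B-CPAP (log2 difference 0.61, SE 0.11, adjusted p = 0.00743), and SDF2, the close relative of SDF2L1, at 39.1 and 43.5 TPM in TPC-1 against 57.0 and 55.4 TPM in B-CPAP (log2 difference 0.44, SE 0.10, adjusted p = 0.0155). Neither gene overlapped between the lines. HSP90B1 (GRP94, the Hsp90 of the ER; ENSG00000166598, chromosome 12, 103930107 to 103953645, plus strand) stood at 458 and 449 TPM in TPC-1 against 226 and 392 TPM in B-CPAP (log2 difference -0.61, SE 0.19, adjusted p = 0.0425), where the B-CPAP library at 37 °C was the low one.

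HSPA5 stood at 984 and 1080.4 TPM in TPC-1 against 834 and 997 TPM in B-CPAP, and the lines overlapped, since TPC-1 at 37 °C lay below B-CPAP at 40 °C (adjusted p = 0.0533). The other 3 members of this role did not pass either. HYOU1, a large Hsp70 that exchanges the nucleotide of HSPA5, stood at 101 and 85.6 TPM in TPC-1 against 102 and 99.0 TPM in B-CPAP (adjusted p = 0.312). SIL1, another exchange factor of HSPA5, stood at 39.7 and 33.9 TPM in TPC-1 against 31.1 and 31.2 TPM in B-CPAP (adjusted p = 0.132), with B-CPAP the lower line at both temperatures. MANF, a secreted ER stress-induced factor that binds HSPA5, stood at 84.1 and 99.0 TPM in TPC-1 against 84.0 and 97.9 TPM in B-CPAP (adjusted p = 0.929), nearly equal between lines at each temperature.

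In the lectin cycle CANX and CALR hold glycoproteins and the UGGT enzymes tag misfolded ones for another round. Of its 4 genes, 3 were lower in B-CPAP (background 32.8%) and none was higher (29.9%). CANX, the membrane-bound lectin, stood at 416 and 389 TPM in TPC-1 against 188 and 255 TPM in B-CPAP (log2 difference -0.87, SE 0.14, adjusted p = 0.00404). UGGT1 stood at 62.0 and 62.3 TPM in TPC-1 against 32.7 and 46.9 TPM in B-CPAP (log2 difference -0.65, SE 0.15, adjusted p = 0.0132), and CALR, at the levels given above, differed by less (log2 difference -0.35, SE 0.06, adjusted p = 0.00593). All 3 were lower in both B-CPAP libraries than in either TPC-1 library. UGGT2, the rarer paralog, stood at 5.08 and 4.83 TPM in TPC-1 against 2.13 and 5.03 TPM in B-CPAP, where only B-CPAP at 37 °C stood low (adjusted p = 0.217).

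Of the 11 disulfide enzymes, 8 were lower in B-CPAP (background 32.8%) and 1 was higher (29.9%). The widest gap of all 38 genes was that of ERO1B (ENSG00000086619, chromosome 1, 236215555 to 236281985, minus strand), an oxidase that recharges the PDI enzymes, at 6.23 and 7.94 TPM in TPC-1 against 0.200 and 0.347 TPM in B-CPAP (log2 difference -2.66, SE 0.21, adjusted p = 0.000451). Its paralog ERO1A stood at 50.0 and 60.5 TPM in TPC-1 against 25.5 and 43.2 TPM in B-CPAP (log2 difference -0.71, SE 0.14, adjusted p = 0.00913). The TPC-1 and B-CPAP libraries did not overlap for either oxidase.

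The PDI enzymes PDIA5 at 80.8 and 77.8 TPM in TPC-1 against 39.8 and 44.1 TPM in B-CPAP (log2 difference -0.90, SE 0.10, adjusted p = 0.00128), PDIA3 at 535 and 522 TPM in TPC-1 against 262 and 349 TPM in B-CPAP (log2 difference -0.80, SE 0.12, adjusted p = 0.00323) and PDIA6 at 214 and 216 TPM in TPC-1 against 109 and 138 TPM in B-CPAP (log2 difference -0.80, SE 0.10, adjusted p = 0.00206) lay close to each other in the size of their gap. PDIA3 (ERp57) works on the glycoproteins that CALR and CANX hold. The escort ERP29 stood at 183 and 171 TPM in TPC-1 against 97.7 and 106 TPM in B-CPAP (adjusted p = 0.00137). The PDI that is also a subunit of prolyl hydroxylase, P4HB, stood at 655 and 583 TPM in TPC-1 against 457 and 424 TPM in B-CPAP (adjusted p = 0.00197).

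ERP44, which retains ERO1 enzymes in the early secretory pathway, stood at 48.5 and 50.5 TPM in TPC-1 against 33.9 and 43.3 TPM in B-CPAP (adjusted p = 0.0417). ERP29, P4HB and ERP44 were each lower in both B-CPAP libraries. The member that was higher, TXNDC11, stood at 26.7 and 24.0 TPM in TPC-1 against 35.8 and 30.8 TPM in B-CPAP (adjusted p = 0.0274). PDIA4 at 539.8 and 514 TPM in TPC-1 against 482 and 553 TPM in B-CPAP (adjusted p = 0.787) and TXNDC5 at 5.31 and 4.06 TPM in TPC-1 against 6.48 and 4.99 TPM in B-CPAP (adjusted p = 0.243) did not pass, and PDIA4 changed its order between the lines from 37 to 40 °C.

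ERAD genes went both ways, as genes in general did, with 4 of 9 lower in B-CPAP (background 32.8%) and 2 higher (29.9%). HERPUD1 (HERP, which organises the ligase complex; ENSG00000051108, chromosome 16, 56932048 to 56944863, plus strand) stood at 82.2 and 88.2 TPM in TPC-1 against 33.3 and 33.3 TPM in B-CPAP (log2 difference -1.33, SE 0.09, adjusted p = 0.000343). SEL1L, the scaffold of the HRD1 ligase, stood at 34.8 and 39.9 TPM in TPC-1 against 14.7 and 24.7 TPM in B-CPAP (log2 difference -0.93, SE 0.16, adjusted p = 0.00509). EDEM1, a mannosidase-like protein that targets misfolded glycoproteins for degradation, stood at 52.8 and 53.0 TPM in TPC-1 against 26.6 and 40.1 TPM in B-CPAP (log2 difference -0.68, SE 0.16, adjusted p = 0.016). All 3 were lower in B-CPAP at both temperatures, HERPUD1 by the most and at a like ratio at each.

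DERL1, a channel-forming derlin, stood at 80.3 and 77.3 TPM in TPC-1 against 49.9 and 57.8 TPM in B-CPAP (adjusted p = 0.00825) and was also lower. Its paralog DERL2, at 13.1 and 15.0 TPM in TPC-1 against 21.8 and 28.1 TPM in B-CPAP (log2 difference 0.78, SE 0.12, adjusted p = 0.00403), was higher in B-CPAP, as was EDEM2, the mannosidase that takes the first step of trimming, at 103 and 92.0 TPM in TPC-1 against 154 and 132 TPM in B-CPAP (adjusted p = 0.00297). The families thus split, with DERL1 and EDEM1 lower and DERL2 and EDEM2 higher.

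SYVN1, the HRD1 ligase itself, stood at 22.2 and 22.0 TPM in TPC-1 against 27.9 and 23.4 TPM in B-CPAP (adjusted p = 0.206), EDEM3 at 12.6 and 15.8 TPM in TPC-1 against 6.98 and 13.4 TPM in B-CPAP (adjusted p = 0.0606) and the lectin OS9 at 103 and 105 TPM in TPC-1 against 95.1 and 100.4 TPM in B-CPAP (adjusted p = 0.366). None of the 3 passed. SYVN1 was the higher and OS9 the lower in both B-CPAP libraries, and the lines overlapped for EDEM3.

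Among the UPR sensors and XBP1, ATF6B stood at 128 and 119 TPM in TPC-1 against 59.6 and 55.1 TPM in B-CPAP (log2 difference -1.10, SE 0.08, adjusted p = 0.000405) and its paralog ATF6, the membrane-bound transcription factor cut in the Golgi, at 61.7 and 59.3 TPM in TPC-1 against 32.6 and 35.6 TPM in B-CPAP (log2 difference -0.81, SE 0.10, adjusted p = 0.00197). Both were lower in B-CPAP. XBP1, the factor that IRE1 activates by splicing its transcript, stood at 115 and 108 TPM in TPC-1 against 154 and 129.7 TPM in B-CPAP (log2 difference 0.34, SE 0.08, adjusted p = 0.0184) and was higher there. Values per gene do not show how much of XBP1 was spliced. ERN1 stood at 3.17 and 3.49 TPM in TPC-1 against 2.31 and 2.99 TPM in B-CPAP (adjusted p = 0.303) and EIF2AK3 at 6.86 and 6.68 TPM in TPC-1 against 6.54 and 8.75 TPM in B-CPAP (adjusted p = 0.505), and neither passed.

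ERO1B, HERPUD1 and ATF6B were the 3 members that passed with at least a 2-fold gap, all lower in B-CPAP (background 17.2%). The direction between lines was the same at 37 and at 40 °C for 35 of the 38 genes (background 86.6%), and the exceptions were UGGT2, PDIA4 and EIF2AK3. The gap was smaller at 40 °C than at 37 °C for 30 of the 38 (background 53.2%), and the median log2 difference was -0.47 at 37 °C and -0.18 at 40 °C, beside -0.08 and -0.02 over all tested genes. Leaving out 1 library at a time left 1 library in a line, and then fewer members and fewer genes in all were called. ERO1B and HERPUD1 remained called in all 4 of these fits. Without an intensity trend 7 calls were lost (HSP90B1, SDF2, CALR, TXNDC11, ERP44, EDEM1 and XBP1). Over all 14912 tested genes, 8538 were called there in place of 9349. With values adjusted for GC content, among protein-coding genes only, ERP44 was lost (adjusted p = 0.145) and EDEM3 was gained (adjusted p = 0.0370). The counts there were 8 higher and 18 lower. Among protein-coding genes without that adjustment they were 8 and 20. Over all protein-coding genes fitted, 9152 were called with that adjustment and 8618 without it.

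**Figure D2:**
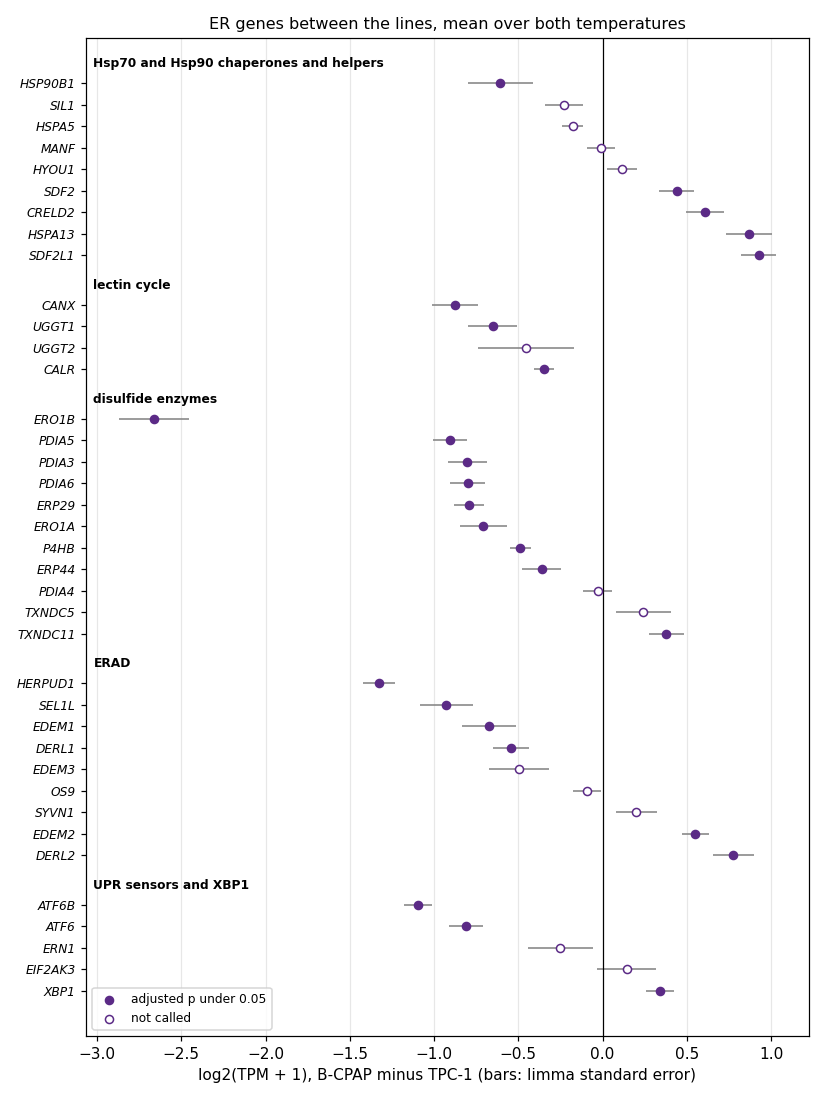
Difference of log2(TPM + 1), B-CPAP minus TPC-1, for the 38 tested genes by role, as estimated by limma over both temperatures with its standard error as bars. Filled points (26 genes) passed an adjusted p of 0.05, ERO1B at -2.66 and HERPUD1 at -1.33 lie farthest to the left, and SDF2L1 at 0.93 lies farthest to the right.

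In TPC-1 these genes differed little between 40 and 37 °C. Genes were counted where TPM + 1 was at least 25% higher or, as the same ratio downward, at least 20% lower at 40 °C. None of the 38 was 25% higher in TPC-1 (background 14.9% of all tested genes and 10.2% of protein-coding ones) or 20% lower (6.32% and 3.62%). ERO1B and TXNDC5 lay just short of that size there, with log2 differences of 0.31 and -0.32. By any amount 16 were higher (background 54.3%) and 22 lower (42.5%), with a median log2 difference of -0.03 beside 0.03 over all tested genes. Rescaling TPM without mitochondrially encoded genes turned that median to 0.017 and moved the median of all genes by 0.05, to 0.08, so that the members' median remained the lower. With 1 library per temperature there is no replicate check, and the exact 95% intervals given below cover counting error in estimated reads only. They lay above 1 for 10 genes (background 22.2%), below 1 for 12 (16.6%) and included 1 for 16. These intervals narrow as reads rise, and the backgrounds were not matched for reads.

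In B-CPAP, 14 of the 38 (36.8%) were at least 25% higher at 40 °C, against a background of 30.2% of all tested genes and 30% of protein-coding ones, and 2 (5.26%) were at least 20% lower, against 13.2% and 11.6%. The 14 were HSP90B1, HSPA13, CANX, UGGT1, UGGT2, PDIA3, PDIA6, ERP44, ERO1A, SEL1L, EDEM1, EDEM3, DERL2 and EIF2AK3, and the 2 were SDF2L1 and CRELD2. At 1.5-fold, 6 were higher (background 12.6%). By any amount 25 were higher (58.2%) and 13 lower (40.1%). The median log2 difference was 0.18, beside 0.09 over all tested genes, and it turned to -0.0021 when each library was centred on its median, which moved the median of all genes by -0.18. With that centring 8 members were 25% higher and 7 were 20% lower, in place of 14 and 2. Counting intervals lay above 1 for 23 genes (background 37%), below 1 for 10 (22.2%) and included 1 for 5. As in TPC-1, these backgrounds were not matched for reads.

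**Figure D3:**
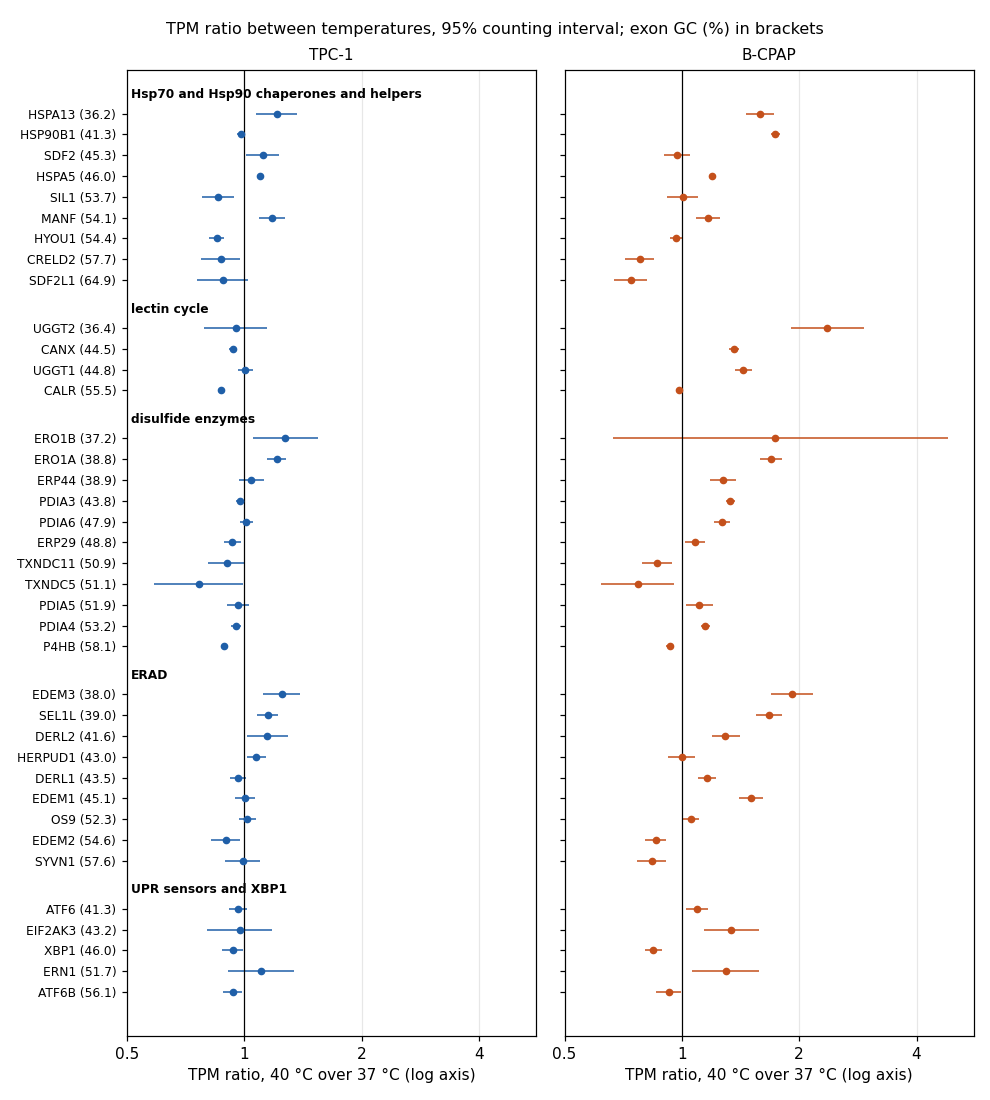
Ratio of TPM at 40 °C to TPM at 37 °C on a log axis for the 38 tested genes in either line, with exact 95% counting intervals as bars and the GC content of the exons in brackets. The TPC-1 points stay near 1, and in B-CPAP the points reach from SDF2L1 and CRELD2 below 1 to UGGT2 above 2, with a wide interval for ERO1B.

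Among the chaperones, HSP90B1, HSPA13 and HSPA5 were higher at 40 °C in B-CPAP, and their helpers went both ways. HSP90B1 was higher in B-CPAP (TPM ratio 1.74, interval 1.69 to 1.79), whereas its interval in TPC-1 included 1 (ratio 0.981, interval 0.957 to 1.01). HSPA13 was higher in TPC-1 (ratio 1.21, interval 1.07 to 1.37) and in B-CPAP (ratio 1.58, interval 1.46 to 1.72). HSPA5 had smaller differences of the same direction, in TPC-1 (ratio 1.10, interval 1.08 to 1.12) and in B-CPAP (ratio 1.19, interval 1.17 to 1.22).

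SDF2L1 was lower in B-CPAP (ratio 0.738, interval 0.669 to 0.815), and in TPC-1 its interval included 1 (ratio 0.879, interval 0.756 to 1.02). CRELD2 was lower in either line, at log2 differences of -0.19 and -0.35. MANF was higher in both by like amounts, 0.23 and 0.22. HSPA5, SDF2L1 and HYOU1, whose elements are shown above, thus differed in direction, and HYOU1 had log2 differences of -0.23 (TPC-1) and -0.05 (B-CPAP). SDF2 (0.15 and -0.04) and SIL1 (-0.22 and 0.01) were near 0 in B-CPAP.

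The lectin cycle was higher in B-CPAP at 40 °C in 3 of 4 genes and, by any amount, lower in TPC-1 in 3 of 4. UGGT2 had the largest log2 difference of all members, 0.94 in B-CPAP (ratio 2.36, interval 1.91 to 2.92), and -0.06 in TPC-1. UGGT1 was higher in B-CPAP (ratio 1.44, interval 1.37 to 1.51) and level in TPC-1 (ratio 1.01, interval 0.963 to 1.05). CANX was higher in B-CPAP (ratio 1.36, interval 1.32 to 1.40) and lower in TPC-1 (ratio 0.934, interval 0.913 to 0.956), while CALR was lower in TPC-1 (ratio 0.872, interval 0.861 to 0.884) and within a few percent in B-CPAP (ratio 0.981, interval 0.968 to 0.994). CALR holds most of the transcripts of this role, whose summed level at 40 °C was 0.882 of that at 37 °C for TPC-1 and 1.02 of it for B-CPAP.

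Of the disulfide enzymes, ERO1A was higher in TPC-1 (ratio 1.21, interval 1.14 to 1.28) and more so in B-CPAP (ratio 1.69, interval 1.58 to 1.81). ERO1B was higher in TPC-1 (ratio 1.27, interval 1.05 to 1.54), and in B-CPAP, where it had few reads, the interval was wide (ratio 1.73, interval 0.666 to 4.82). TXNDC5, at an uncertain level, was lower in TPC-1 (ratio 0.765, interval 0.587 to 0.993) and in B-CPAP (ratio 0.770, interval 0.621 to 0.952).

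The PDI enzymes PDIA3, PDIA4, PDIA5 and PDIA6 had log2 differences of -0.03, -0.07, -0.05 and 0.02 in TPC-1 and of 0.41, 0.20, 0.14 and 0.34 in B-CPAP. For P4HB they were -0.17 and -0.11, for TXNDC11 -0.15 and -0.21, for ERP29 -0.10 and 0.11, and for ERP44 0.06 and 0.34. P4HB was thus lower at 40 °C in both lines, and the TPC-1 counting intervals of TXNDC11 and ERP44 included 1.

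Of the ERAD genes, EDEM3 was higher in TPC-1 (log2 difference 0.30) and in B-CPAP (ratio 1.92, interval 1.69 to 2.17), and SEL1L likewise in TPC-1 (ratio 1.15, interval 1.08 to 1.22) and in B-CPAP (ratio 1.67, interval 1.55 to 1.81). EDEM1 was level in TPC-1 (TPM of 52.8 and 53.0) and higher in B-CPAP (ratio 1.51, interval 1.40 to 1.62). DERL2 was higher in either line (0.18 and 0.36 as log2 differences).

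HERPUD1, whose ERSE-II is shown above, was level in B-CPAP (ratio 0.999, interval 0.923 to 1.08) and slightly higher in TPC-1 (ratio 1.07, interval 1.02 to 1.13). EDEM2 was lower in both lines (-0.16 and -0.22 as log2 differences), SYVN1 was lower in B-CPAP (-0.01 and -0.25), OS9 stayed near 0 (0.02 and 0.08) and DERL1 went from -0.05 to 0.21.

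Among the UPR sensors, EIF2AK3 was level in TPC-1 (ratio 0.973, interval 0.802 to 1.18) and higher in B-CPAP (ratio 1.34, interval 1.14 to 1.58), and ERN1 had log2 differences of 0.11 and 0.27. XBP1 was lower in TPC-1 (ratio 0.932, interval 0.876 to 0.993) and in B-CPAP (ratio 0.843, interval 0.802 to 0.887). ATF6 (-0.06 and 0.13) and ATF6B (-0.10 and -0.11) had small log2 differences.

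By any amount 14 genes were higher in both lines (background 41.6%) and 11 were lower in both (27.1%). With the line as a block, limma called 0 of the 38 at 40 °C, as it called 0 of all 14912 genes. The smallest adjusted p of a member was 0.220, for ERO1A. At an unadjusted p under 0.05 there were 7 members in either direction (background 19.5%). Of these, 6 were higher at 40 °C, as were 1772 of the 14912 tested genes. When only protein-coding genes were fitted, 5 members passed, all higher at 40 °C (HSP90B1, HSPA13, ERO1A, SEL1L and EDEM3). The background there was 11.4% in either direction. With a minimum mean of 5 TPM 1 passed (ERO1A, adjusted p = 0.0332), beside a background of 8.57% in either direction. In the protein-coding fit with values adjusted for GC content, 0 members and 0 genes in all passed. There the log2 differences over both lines went from 0.38 to 0.11 for HSP90B1 (adjusted p = 0.736), from 0.46 to 0.03 for HSPA13 (adjusted p = 0.909), from 0.50 to 0.13 for ERO1A (adjusted p = 0.535), from 0.45 to 0.08 for SEL1L (adjusted p = 0.740) and from 0.57 to 0.18 for EDEM3 (adjusted p = 0.543).

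The temperature difference was larger in B-CPAP than in TPC-1 for 26 of the 38 genes, as it was for 55.4% of all tested genes. The median difference of the differences was 0.18 for the members and 0.04 for all tested genes. Its widest members were UGGT2, HSP90B1, EDEM1, EDEM3 and CANX, whose values in each line stand above. For CANX, PDIA4 and ERP29 the counting interval lay below 1 in TPC-1 and above 1 in B-CPAP (3 of 38, background 1.35%). These genes had 2248 to 15686 estimated reads per library, and the interval narrows as reads rise. The background was not matched for reads. The difference of the differences has no test, since no residual degree of freedom is left for it.

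The temperature difference moved with the GC content of the exons, both over all genes and over these. Across the 38 members Spearman's rho between log2 difference and GC content came to -0.63 for TPC-1 and -0.76 for B-CPAP, and across all tested genes to -0.47 and -0.69, where genes share a library and are not independent replicates. The 19 members of lowest GC content had median log2 differences of 0.06 (TPC-1) and 0.41 (B-CPAP), and 12 and 17 of them were higher. The other 19 had medians of -0.10 and -0.05, and 4 and 8 were higher. The 14 genes that were 25% higher in B-CPAP all had a GC content of at most 47.9%, and SDF2L1 and CRELD2 had 57.7% or more.

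**Figure D4:**
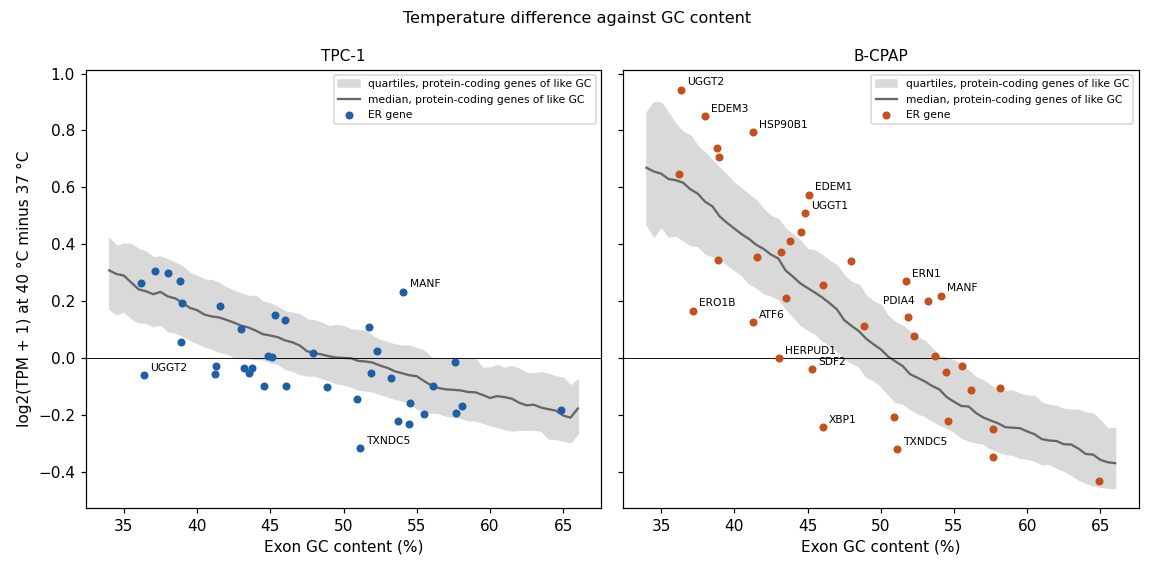
Log2 difference of TPM + 1 between 40 and 37 °C against the GC content of the exons in percent, for the 38 tested genes (points) in each line, with the median (line) and quartiles (band) of protein-coding genes of like GC content. In B-CPAP the medians of other genes fall steeply with GC content and the members fall with them, with HSP90B1 above the band and XBP1 below it.

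Each gene was therefore set against tested protein-coding genes outside the group whose GC content lay within 1 percentage point. In TPC-1, 13 members lay above the median of such genes and 25 below (background 49.9% above), the median of the members' distances was -0.06, and none lay 25% above (background 5.62%) or 20% below (2.48%). In B-CPAP, 24 lay above and 14 below (background 50% above), the median was 0.08, and 4 lay 25% above (8.54%) and 3 lay 20% below (4.95%). Both medians kept their sign with other pseudocounts, with a wider window, with exon length matched as well and with a minimum mean of 5 TPM.

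The genes were also set against the quartiles of such genes. In TPC-1, 2 members lay above the upper quartile (background 24.9%) and 15 below the lower one (25.1%), and 21 lay between. In B-CPAP, 14 lay above (25%), 9 below (24.7%) and 15 between. Whether this pattern differs between the lines was not tested.

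MANF and ERN1 were the 2 members above the upper quartile in both lines (background 9.47%). MANF, at a GC content of 54.1%, had log2 differences of 0.23 for TPC-1, beside a median of -0.05 over genes of like GC, and of 0.22 for B-CPAP, beside -0.11. ERN1 lay 0.12 and 0.31 above. A further 5 members, TXNDC5, TXNDC11, ERP44, XBP1 and ATF6, lay below the lower quartile in both lines (9.3%).

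XBP1 and HSPA5, whose ERSE sequences are shown above, have the same GC content to 3 digits, 46.0%, and genes of like GC in B-CPAP had a median of 0.21. HSPA5 had a log2 difference of 0.26, which is 0.05 above that median. XBP1 had -0.24, which is -0.45 relative to it and the lowest such value of the 38 genes. HERPUD1 lay at -0.34 in B-CPAP. ERO1B lay at -0.42 there on 8 and 13 reads, where the added 1 sets the value, and it is among the 3 genes 20% below and the 9 below the lower quartile counted above. Its plain TPM ratio there, given above, was over 1 with an interval that included 1.

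The 3 genes below the lower quartile in TPC-1 and above the upper quartile in B-CPAP were HSP90B1, CANX and UGGT2 (background 4.15%). Relative to genes of like GC, HSP90B1 lay at -0.17 for TPC-1 and at 0.38 for B-CPAP, the highest of the 38 in that line. CANX lay at -0.18 and 0.18, and UGGT2 at -0.30 and 0.33. By role, all 4 lectin cycle genes were below the median of like genes in TPC-1 and above it in B-CPAP, and 2 of 11 disulfide enzymes were above it in TPC-1 and 7 of 11 in B-CPAP. HSPA13, SEL1L and ERO1A, with large differences in B-CPAP, lay 0.03, 0.21 and 0.23 from genes of like GC there.

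**Figure D5:**
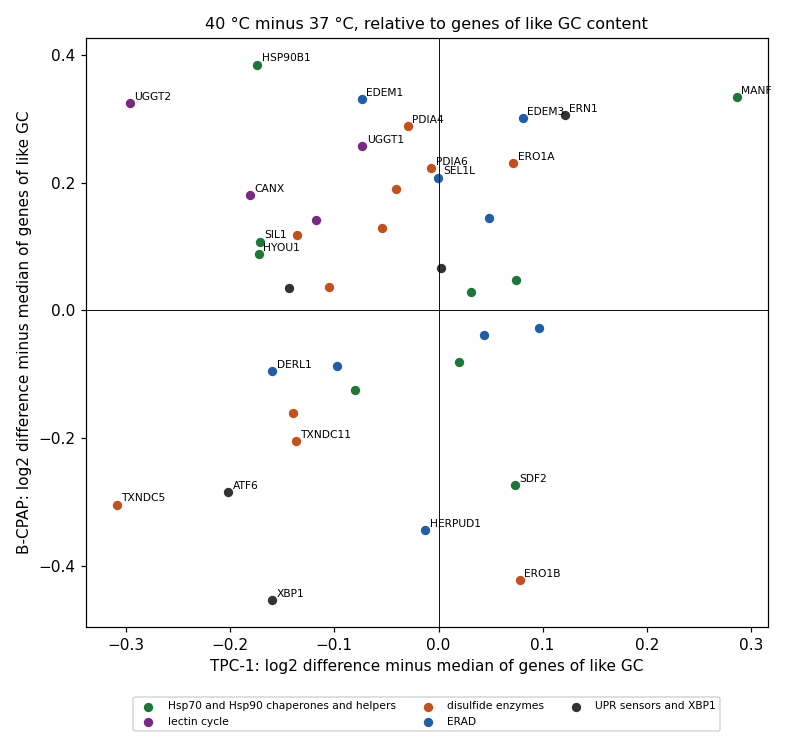
Distance of each of the 38 genes from the median of protein-coding genes of like GC content, as log2 difference of TPM + 1 between 40 and 37 °C, in TPC-1 (horizontal axis) and in B-CPAP (vertical axis), coloured by role. HSP90B1, UGGT2 and CANX lie at the upper left, MANF lies at the upper right, and XBP1 and TXNDC5 lie at the lower left.

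The genes were also split by the promoter elements described above. The 10 genes with an ERSE or ERSE-II had median log2 differences of -0.10 (TPC-1) and -0.01 (B-CPAP), and 3 and 4 of them were higher. The 26 genes with a promoter entry and no such element had medians of -0.0046 and 0.21, and 13 and 19 were higher. Relative to genes of like GC content the 10 had medians of -0.10 and -0.02, and the 26 had -0.04 and 0.12. Between the lines, 5 of the 10 were called lower in B-CPAP (background 32.8%) and 3 higher (29.9%), and 11 and 5 of the 26. These are descriptions of the 2 sets, and the difference between them was not tested.

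Other genes of the same pathways were read from 4 further lists of 78 genes, 77 of which were tested. Of these 77, 10 were 25% higher and 1 was 20% lower in TPC-1 at 40 °C, 29 were higher and 5 lower in B-CPAP, and limma called 24 higher and 23 lower in B-CPAP than in TPC-1. The background shares are 14.9% and 6.32% for TPC-1, 30.2% and 13.2% for B-CPAP, and 29.9% and 32.8% between the lines, and the line calls lie near theirs. Their median distance from genes of like GC content came to -0.02 for TPC-1 and 0.0041 for B-CPAP.

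Genes of translocation into the ER and J proteins, which feed chains to HSPA5, had 12 of 20 members 25% higher in B-CPAP at 40 °C (background 30.2%) and none 20% lower (13.2%), at a median GC content of 42.0%. At that GC content protein-coding genes had a median log2 difference of 0.38 in B-CPAP. Relative to genes of like GC content there, the median of the list was 0.05, and 2 of the 20 lay 25% above (background 8.54%). SEC62, of the translocon, stood at 28.3 and 32.2 TPM in TPC-1 against 18.3 and 37.5 TPM in B-CPAP, and the reductase DNAJC10, a J protein, at 9.35 and 10.7 TPM in TPC-1 against 6.29 and 12.1 TPM in B-CPAP. DNAJC3, an inhibitor of PERK, had the largest difference of the 77 in TPC-1, with 15.9 and 22.7 TPM at 37 and 40 °C.

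Of the other folding enzymes, 6 of 19 were 25% higher in B-CPAP, a share near the background of 30.2%, and 1 was 20% lower (13.2%). The membrane thioredoxin TMX1 stood at 30.8 and 39.4 TPM in TPC-1 against 20.9 and 40.9 TPM in B-CPAP, and the vitamin K enzyme VKORC1, the lower one, at 39.3 and 36.9 TPM in TPC-1 against 20.4 and 12.9 TPM in B-CPAP. Between the lines, SELENOM stood at 42.0 and 31.8 TPM in TPC-1 against 0.126 and 0.269 TPM in B-CPAP (log2 difference -4.97, SE 0.20, adjusted p = 7.69e-05), the widest gap of the 77, on 3 and 6 reads in B-CPAP.

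Of the other ERAD genes, 8 of 22 were 25% higher in B-CPAP at 40 °C (background 30.2%) and 1 was 20% lower (13.2%). Between the lines 10 were lower (background 32.8%) and 4 higher (29.9%) in B-CPAP. FAM8A1, which assembles the HRD1 complex with HERPUD1, stood at 11.8 and 15.0 TPM in TPC-1 against 4.17 and 9.41 TPM in B-CPAP. Its log2 difference in B-CPAP, 1.01, was the largest of the 77.

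The other UPR genes are a mixed list, only part of which acts downstream of PERK. In B-CPAP at 40 °C, 3 of 16 were 25% higher (background 30.2%) and 3 were 20% lower (13.2%). In TPC-1, 2 were 25% higher (14.9%). DDIT3 (CHOP, a transcription factor of prolonged ER stress) stood at 8.10 and 11.0 TPM in TPC-1 against 24.2 and 34.8 TPM in B-CPAP, higher at 40 °C in either line, whereas TRIB3, one of its targets, stood at 71.9 and 63.5 TPM in TPC-1 against 29.7 and 21.2 TPM in B-CPAP. Between the lines PPP1R15A (GADD34, which restarts translation) stood at 44.5 and 44.0 TPM in TPC-1 against 151 and 130.3 TPM in B-CPAP (log2 difference 1.65, SE 0.10, adjusted p = 0.000196) and DDIT3 differed likewise (log2 difference 1.52, SE 0.12, adjusted p = 0.000466), both higher in B-CPAP, while TRIB3 (log2 difference -1.39, SE 0.12, adjusted p = 0.000532) was lower.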

How the data were processed

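RNeasy Plus kits gave the RNA and the TruSeq v2 kit the libraries, per the labels' protocols. The authors used GRCh38, Trimmomatic 0.38, featureCounts 2.0.0, MultiQC and FastQC, per the submitters' processing notes. Not given in the sources used here are the annotation release and the aligner. The deposited values are TPM for 58884 gene IDs in 4 libraries. Of these IDs, 58611 (99.5%) were found in GENCODE 29, which gave exon length, GC content and coordinates (GRCh38).

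Genes whose mean TPM reached 1 (14912, of which 11824 protein-coding) were analysed as log2(TPM + 1), on which scale fold changes of low genes are understated. Temperatures were compared within a line without a test, and over both lines by limma 3.58.1 (R 4.3.3, intensity trend, two-sided, Benjamini-Hochberg adjustment over all tested genes, threshold 0.05) with the line as a block. Lines were compared with temperature as a block. No label tells of separate cultures within a group, and p-values measure only the spread between these libraries. TPM keeps no depth, so reads were estimated as TPM times exon length over the value of 1 read, whole within 0.02 for 90.7 to 92.2% of values under 20 reads. They gave exact (Clopper-Pearson) 95% intervals, which cover counting error only. The limma fits were tested on simulated data, and no outcome of that is given here.

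The genes and lists were chosen with earlier results of these data known. All members are named, and from the further lists up to 5 genes each way per comparison by size of difference, at a mean TPM of at least 5. The promoters shown were chosen among those with an element after values were seen. Alternatives were other pseudocounts, filters, scalings, limma settings and fits leaving out 1 library.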

Additional observations from a re-analysis of the deposited data

Results flagged for a closer look

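In 3 genes the temperature difference went opposite ways in the lines, lower at 40 °C in TPC-1 and higher in B-CPAP. The counting interval left out 1 in each line, as it did for 1.35% of all genes with reads. That share was not matched for reads. The difference between the log2 differences, B-CPAP minus TPC-1, was 0.54 for CANX, 0.27 for PDIA4 and 0.21 for ERP29. With 1 library per group it was not tested. PDIA4 was lower in TPC-1 (ratio 0.952, interval 0.926 to 0.978) and higher in B-CPAP (ratio 1.15, interval 1.12 to 1.18), as was ERP29 (ratio 0.932, interval 0.887 to 0.978, and ratio 1.08, interval 1.02 to 1.15). For CANX the values stand in the account of the lectin cycle. Centring each library on its median moved the median of all genes by -0.09 (TPC-1) and -0.18 (B-CPAP). The log2 differences in B-CPAP were 0.44 for CANX, 0.20 for PDIA4 and 0.11 for ERP29, the last smaller than that shift. Relative to genes of like GC, CANX lay at -0.18 (TPC-1) and 0.18 (B-CPAP). PDIA4 lay at -0.03 and 0.29, and ERP29 at -0.11 and 0.04. PDIA4 in TPC-1 and ERP29 in B-CPAP lay within the quartiles of such genes.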

How the results depend on the processing

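With each library centred on its median, the members' median log2 difference at 40 °C came to -0.13 (TPC-1) and -0.0021 (B-CPAP), 2 were 20% lower in TPC-1, and 8 were higher (by 25%) and 7 lower in B-CPAP. Rescaling without mitochondrially encoded genes gave a median of 0.017 and 3 higher genes in TPC-1, and 1 lower gene in B-CPAP. Quantile normalization gave 1 lower gene in TPC-1 and 4 in B-CPAP. A pseudocount of 0.1 gave 1 higher and 1 lower gene in TPC-1, and one of 5 gave 1 lower gene in B-CPAP. Over both lines limma called 5 members at 40 °C among protein-coding genes and 1 at a mean TPM of at least 5, and 0 among protein-coding genes with values adjusted for GC content. Between the lines, the fit without an intensity trend called 5 members higher and 14 lower in B-CPAP in place of 8 and 18. Leaving out 1 library gave 0 to 1 higher and 2 to 16 lower. In those fits temperature was dropped and the lone library of a line is assumed to vary like the other line's. The cause of these shifts was not tested. The fits leaving out 1 library had both fewer samples and no temperature block, which cannot be told apart. No paired analysis was possible because each group holds 1 library, so that line and temperature were the only blocks. With 1 library per group the spread between cultures is unknown, and ERO1B in B-CPAP rests on 8 and 13 reads.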
